A study of Mus musculus with 38 samples.

Results

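Ribosome footprints of 7 genes of GABAergic interneurons were followed across cultured mouse cortical neurons: Gad1, Gad2, Slc32a1, Sst, Npy, Dlx1 and Dlx2. The genes were taken as a list by name, not by any measured value, and they are 7 of the 22401 genes counted. GABAergic interneurons are the inhibitory neurons of the cortex, a minority among excitatory glutamatergic cells. They make GABA from glutamate, load it into synaptic vesicles and release it, and subtypes add a neuropeptide such as somatostatin or neuropeptide Y. They arise outside the cortex, where Dlx transcription factors set their lineage, and migrate in before birth. Gad1 and Gad2 encode the enzymes that make GABA (GAD67 and GAD65), Slc32a1 encodes the vesicular GABA transporter, Sst and Npy encode peptide precursors, and Dlx1 and Dlx2 encode homeodomain transcription factors.

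The neurons were primary cortical cultures from embryonic CD-1 mice and expressed the biotin ligase TurboID from a doxycycline-inducible lentivirus. The ligase was either TurboID-PSD95, directed to dendrites by sequences of the PSD95 gene, or Pan-TurboID, which lacks such sequences. Biotin was given for 30 min after 2 min of cycloheximide, which halts ribosomes on the mRNA (the labels give this time for every library, while the study's text gives a shorter labelling after DHPG). Dishes were pooled per replicate, and monosomes yielded an input library and a streptavidin pulldown library of labelled ribosomes. All 38 libraries belonged to 14 groups. With each bait, input and pulldown, there were 3 replicates of resting neurons and 3 of neurons that were silenced for 2 h with TTX and DL-AP5, depolarized with 55 mM KCl for 1 h and rested for 30 min. The labels give the silencing for activated neurons and do not state it for resting ones. With TurboID-PSD95 there were also 3 inputs and 3 pulldowns of neurons silenced for 2 h and then kept for 10 min in 100 µM DHPG, which activates group I metabotropic glutamate receptors. The remaining 8 TurboID-PSD95 libraries, 2 per group, came from resting and depolarized neurons that had received 20 nM siRNA against the translation initiation factor eIF4G2 for 72 h. The labels' descriptions of the DHPG inputs and of the siRNA libraries name the cytosol, whereas their virus field gives the PSD95 bait, and the virus field was used. The virus acts in whichever cells it enters, so a bait is not restricted to interneurons or to excitatory neurons. A control with another siRNA was not analysed here, and resting or untransfected groups set against DHPG or the siRNA are those of the KCl experiment. The files show KCl replicates 1 and 2 counted in one run and replicate 3 in another, with all DHPG and siRNA libraries in a further run, so treatment and experiment cannot be told apart in those comparisons.

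The genes fall in a few places of the mouse genome (mm10), and 5 of the 7 lie on chromosome 2. The coding sequence (CDS) of Gad1 spans chr2:70563832-70600796 on the plus strand in 16 exon segments, and that of Gad2 spans chr2:22622663-22690346 on the plus strand, also in 16. Slc32a1 lies at chr2:158611242-158615004 (plus strand, 2 segments). Dlx1 (chr2:71529994-71532518, plus strand) and Dlx2 (chr2:71544520-71546392, minus strand) are neighbours with 12002 bases between their CDSs, and Dlx1 lies 929198 bases beyond Gad1. Sst is at chr16:23889729-23890744 on the minus strand and Npy at chr6:49823598-49829327 on the plus strand. The CDSs differ in length, from 294 nt for Npy and 351 nt for Sst through 768 nt for Dlx1 and 999 nt for Dlx2 to 1578 nt for Slc32a1, 1758 nt for Gad2 and 1782 nt for Gad1, around a median of 1101 nt over all genes. The Slc32a1 CDS shares 365 bases and its 5′ UTR 332 bases with the opposite-strand gene Gm14205, and the 3′ UTR of Dlx1 shares 335 bases with Dlx1as. The use of strand in counting is not given in the sources used here, so reads there are uncertain.

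Because KCl acts on genes through calcium and the factor CREB, whose binding element is TGACGTCA with the shorter core TGACG, the promoters of the 7 genes were searched for these letters on both strands, from 250 bases before to 50 bases after the RefSeq start (GRCm38.p6). The full element was found in the Sst promoter and in 1.79% of all 32851 promoters. The core, which the full element contains, was found in Gad2, Sst and Dlx2 and in 20.8% of all promoters. A window of 30 bases around each match is printed 5′ to 3′ on the gene's own strand, with the matched letters in capitals (for Gad2 the core reads on the opposite strand). The windows lie at chr2:22622282-22622311 for Gad2, with the match 33 bases before the start, at chr16:23890874-23890903 for Sst (48 bases before) and at chr2:71546795-71546824 for Dlx2 (58 bases before).
Gad2: ccatttcccttcCGTCActctctcatctcc
Sst: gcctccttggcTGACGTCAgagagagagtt
Dlx2: gctgttgctaggTGACGttgcccgcggtca
A match describes these letters only, and was not tested as a binding site. The KCl response of the 3 genes with a match and of the 4 without one is given in turn.

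CDS counts per library ranged from 2048604 to 14646402, and levels are given as CPM, counts scaled to this total. Within groups, replicates varied beyond sampling noise, with a chi-square per gene of 8.27 to 44.8 in the KCl experiment, 1.47 to 8.43 after DHPG and 2.79 to 4.5 with the siRNA, where noise alone gives 1. The labels could be checked in part. All 8 immediate early genes of a marker list rose in the depolarized inputs (median log2 fold change 3.53), and Dlg4, which encodes PSD95 and is part of the bait, was the 1 gene enriched by TurboID-PSD95 beyond Pan-TurboID. Inputs held the markers of excitatory neurons (10 genes, summed level 1420 to 2106 CPM over all groups), and astrocyte and oligodendrocyte markers as well. In inputs without siRNA the microglial markers summed to 1.28 to 5.73 CPM. Tests are quasi-likelihood tests of edgeR, with p-values adjusted over all genes by Benjamini-Hochberg (FDR) and called at 0.05, and fold changes are on the log2 scale with their standard error (SE). Nothing in the labels says that replicates came from separate animals, so p-values measure the spread between these samples. Cultures are mixed, and fewer interneurons, less mRNA per interneuron and fewer ribosomes per mRNA cannot be told apart.

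Per kilobase of CDS, the scale on which genes can be set against each other, Sst had the highest level in the 6 resting inputs, from 1454 to 3275 CPM per kb with a median of 2212. Gad1 followed with 231 to 364 (median 286), then Npy (68.1 to 429, median 275), Slc32a1 (182 to 363, median 240) and Gad2 (90.5 to 150, median 115), all in CPM per kb. Dlx2 had 27.8 to 46.3 and Dlx1 15.0 to 24.0 CPM per kb. Gad1, Npy and Slc32a1 overlapped in these libraries, whereas Sst lay above every other gene, and Dlx1 below every other gene, in all 6. Gad1 exceeded Gad2 by a factor of 2.23 to 2.95 (CPM per kb) in each of the 19 inputs. The peptide genes varied most between replicates. Npy had 84.8, 126 and 29.1 CPM in the resting Pan-TurboID inputs and 77.1, 116 and 20.0 CPM in the resting TurboID-PSD95 inputs, with replicate 3 lowest both times.

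**Figure D1:**
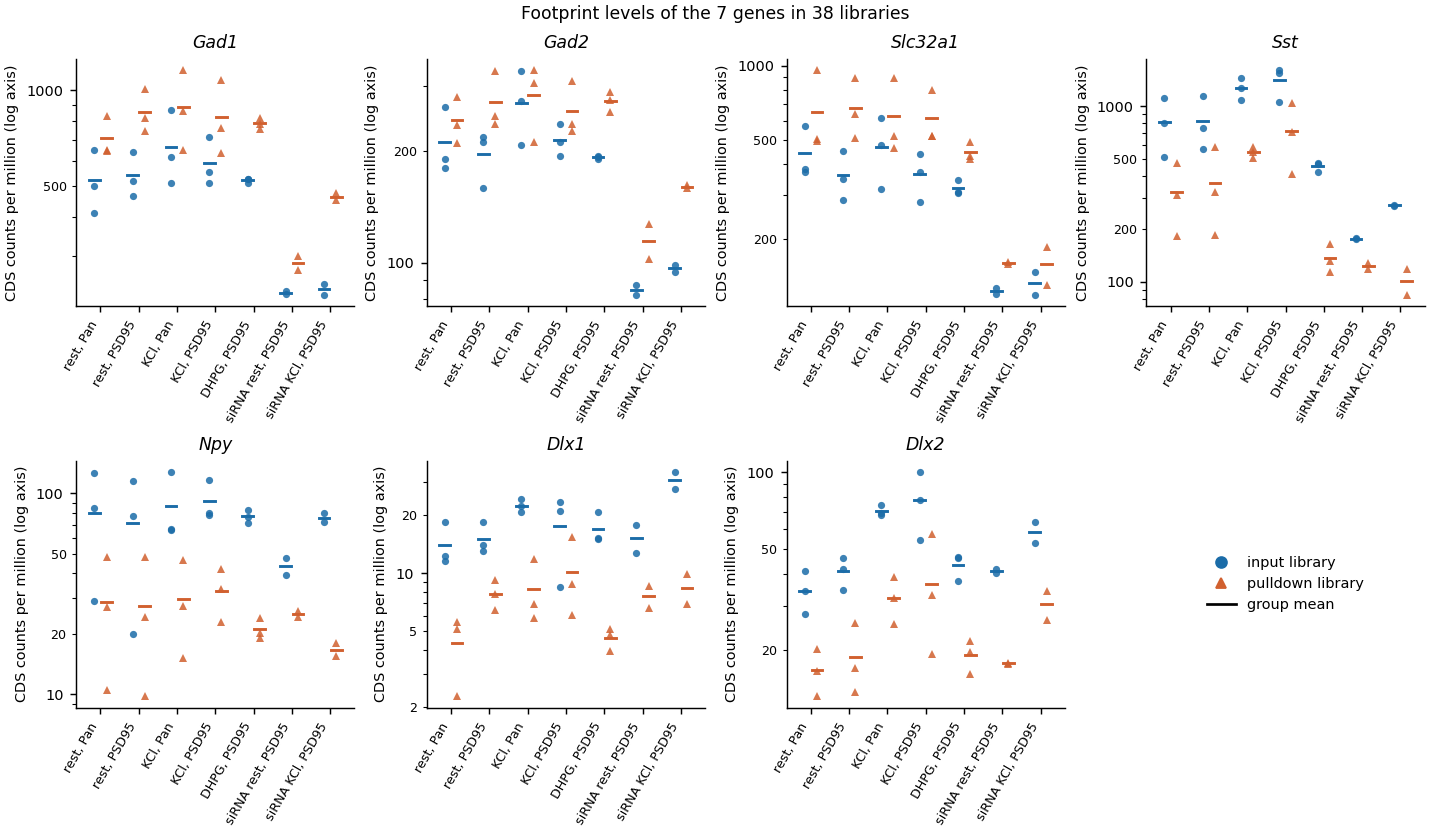
Levels of the 7 genes in each of the 38 libraries, in CPM on a log axis, with the 7 combinations of treatment and bait on the x axis. Circles are inputs, triangles are pulldowns and dashes are group means. Gad1, Gad2 and Slc32a1 lie lowest in the inputs with siRNA, and for Sst, Npy, Dlx1 and Dlx2 the mean of the pulldowns lies under that of the inputs in every combination.

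Across the 14 groups, the mean level of Gad1 spanned 888.6 ± 254.5 CPM (SD, n = 3) in depolarized Pan-TurboID pulldowns to 231 ± 4.19 CPM (n = 2) in resting siRNA inputs. In this order the 4 groups with siRNA took the last 4 places for Gad1, Gad2 and Slc32a1. Of the 13 pairs of neighbours in the order of Gad1, 11 overlapped, and the 2 that did not were at the lower end, between siRNA groups. Gad2 ran from 283 ± 63.0 to 84.4 ± 3.51 CPM, with 9 overlapping pairs, and Slc32a1 from 677 ± 193 CPM in resting TurboID-PSD95 pulldowns to 124 ± 4.99 CPM, with 12. For Gad2 and Slc32a1 the DHPG inputs, the lowest group without siRNA, lay above the highest siRNA group without overlap. Sst had the widest range of the 7, 19-fold between single libraries, from 1400 ± 296 CPM in depolarized TurboID-PSD95 inputs to 101 ± 24.2 CPM in depolarized siRNA pulldowns, with 10 of 13 pairs overlapping. Npy ran between the same groups, from 91.6 ± 21.6 to 16.7 ± 1.72 CPM, with 11 overlapping. Dlx1 was highest in depolarized siRNA inputs (30.6 ± 4.40 CPM) and Dlx2 in depolarized TurboID-PSD95 inputs (77.6 ± 23.0 CPM), and both were lowest in resting Pan-TurboID pulldowns (4.33 ± 1.79 and 16.7 ± 3.55 CPM). Their neighbours overlapped in 11 and 10 of 13 pairs. The order of groups and the overlap of neighbours were read for the 7 genes only. How common such orders and gaps are among all genes is therefore not known.

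The first comparison asked what depolarization did to footprints in the whole culture, with both baits in one contrast. Dlx2 rose. Its level was 27.8, 40.9 and 34.2 CPM in resting and 67.8, 69.2 and 74.7 CPM in depolarized Pan-TurboID inputs. With TurboID-PSD95 it was 34.7, 41.8 and 46.3 CPM at rest and 54.5, 100.5 and 77.8 CPM after KCl. The 6 resting libraries lay below the 6 depolarized ones, and Dlx2 was the only one of the 7 genes without overlap, against 10.5% of 12924 genes compared in this way. The log2 fold change of Dlx2 was 1.01 (SE 0.214, edgeR FDR 0.00165), which made it the 1 gene of 7 to pass, and it passed as a rise. Of all genes, 15.4% passed in either direction and 6.32% as a rise. The call ended without replicate 3, where the fold change was 1.07. By replicate, the mean log2 ratio of both baits was 0.949, 0.996 and 0.919, with the rise in 6 of 6 pairs of libraries and in both counting runs. The inputs of both baits share replicate numbers, so these pairs are not all independent. In replicate 3 the log2 ratios of Npy were 2.1 and 2.48, while in replicate 1 those of Dlx1 were 1.01 and -1.03. All fits, with or without a block, counted these inputs as separate libraries. Where a contrast pools the inputs of both baits, its FDRs may thus be too small. The study's methods state that resting and activated samples of one replicate were processed together, and with the replicate number as a block 2 genes passed, Sst and Dlx2, against 19.5% of all genes.

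Sst had 800.4, 1114 and 510.3 CPM in resting Pan-TurboID inputs and 1078, 1271 and 1443 CPM after KCl. In TurboID-PSD95 inputs the levels were 752, 1149 and 566 CPM at rest and 1541, 1599 and 1060.0 CPM after KCl. Every depolarized library exceeded the resting library of its own number and bait, but the groups overlapped. The log2 fold change was 0.73 (SE 0.281, edgeR FDR 0.0814), which did not pass. With the block it passed, at 0.83 (SE 0.172, edgeR FDR 0.00109). Without a block Sst also passed with DESeq2 (20.6% of all genes did) and when replicate 2 was left out (6.94%). Npy was not in one direction. Its depolarized inputs had 66.9, 65.8 and 128 CPM (Pan-TurboID) and 78.4, 79.9 and 117 CPM (TurboID-PSD95), so that replicates 1 and 2 were below or near their resting libraries and replicate 3 was above. The mean log2 ratio of both baits was -0.157 and -0.728 in replicates 1 and 2, counted in one run, and 2.29 in replicate 3, counted in the other. In the fit Npy had a log2 fold change of 0.27 (SE 0.447), which turned to -0.42 without replicate 3. Gad1, Gad2 and Slc32a1 had 0.28, 0.28 and 0.08 (SE 0.191, 0.171 and 0.231), and Dlx1 had 0.49 (SE 0.272). None of them passed, and the 95% intervals (-0.09 to 0.66 for Gad1, -0.06 to 0.61 for Gad2 and -0.37 to 0.53 for Slc32a1) do not exclude a rise of over 0.5 for any of the 3. The median over the 7 genes was 0.282, against -0.00777 over all genes.

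Among related genes fixed as lists, 2 of 14 other transcription factors of the interneuron lineage rose and 1 fell (median 0.0642), where 15.4% of all genes passed, 6.32% as a rise, so these counts are not set apart from the background. Sp9, a zinc finger factor, rose by 0.88 (SE 0.151, edgeR FDR 1.91e-04) and Prox1, a homeobox factor of some interneurons, by 1.19 (SE 0.343, edgeR FDR 0.0185). Satb1, a chromatin organizer used by maturing interneurons, fell by 1.30 (SE 0.203, edgeR FDR 5.32e-05). Of 15 other peptides, receptors and subtype markers that could be tested of 17, Ndnf, which encodes a secreted protein of neurogliaform cells, fell by 0.86, and no other passed. None of the 4 genes of GABA uptake and breakdown passed.

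**Figure D2:**
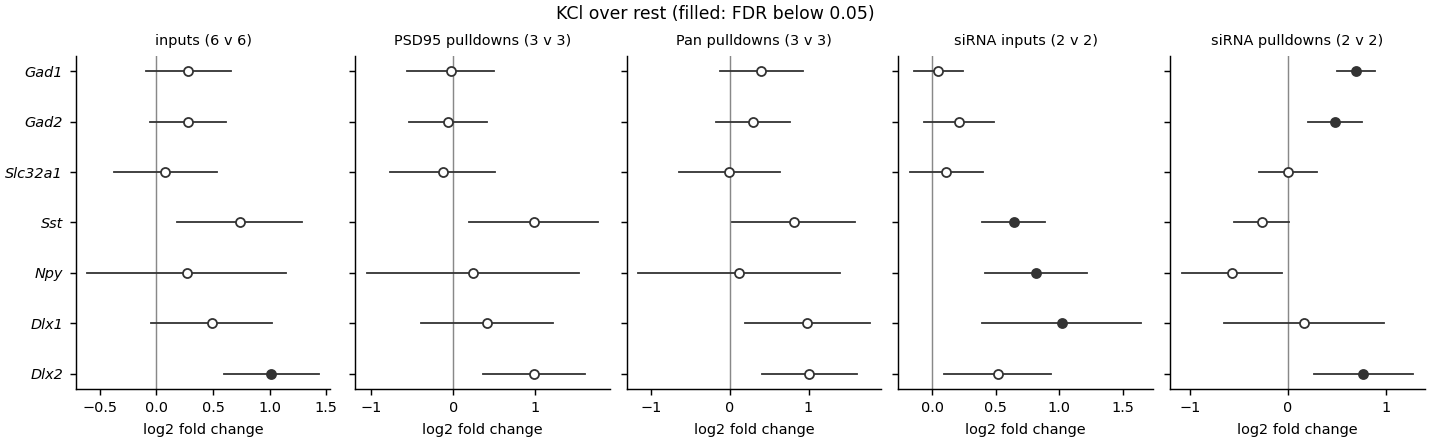
Log2 fold change of depolarized over resting libraries for each gene, with 95% intervals, in 5 panels by library type (number of libraries given as depolarized v resting). Filled points passed an FDR of 0.05. Dlx2 is near 1 in the 3 panels without siRNA and, of these, filled in the inputs only. Sst, Npy and Dlx1 are filled in the siRNA inputs, and Gad1, Gad2 and Dlx2 in the siRNA pulldowns.

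Within labelled ribosomes the KCl response was read in each bait's pulldowns. None of the 7 genes passed with TurboID-PSD95 (6.59% of all genes did) or with Pan-TurboID (5.03%). At an unadjusted p under 0.05 were Sst and Dlx2 with TurboID-PSD95 and Dlx1 and Dlx2 with Pan-TurboID. The share of all genes at that p is not given here. DESeq2 called 1 of the 7 genes in each, against 12.2% and 8.92% of all genes. Dlx2 had 13.7, 25.7 and 17.1 CPM in resting and 19.4, 57.3 and 33.1 CPM in depolarized TurboID-PSD95 pulldowns. With Pan-TurboID it had 13.2, 20.3 and 16.7 CPM at rest and 25.4, 38.7 and 32.3 CPM after KCl. The groups overlapped with the first bait and not with the second, where 3 of the 7 genes, Sst, Dlx1 and Dlx2, did not overlap, against 25.3% of all genes. The log2 fold changes of Dlx2, 0.99 (SE 0.316, edgeR FDR 0.0572) and 1.01 (SE 0.309, edgeR FDR 0.0558), were near that in the inputs. With the replicate number as a block, Sst and Dlx2 passed in both baits' pulldowns. They had 1.03 (edgeR FDR 0.00760) and 0.95 (edgeR FDR 0.00990) with TurboID-PSD95, against 9.76% of all genes, and 0.93 (edgeR FDR 0.0171) and 1.00 (edgeR FDR 0.00624) with Pan-TurboID, against 7.56%.

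The next comparison was the study's definition of dendritic translation, TurboID-PSD95 pulldowns over the mean of both inputs. At rest, the enzyme and transporter genes were higher in the pulldown and the others lower. Gad1 had 744, 1006 and 819 CPM in the pulldowns against 412 to 648 CPM in the 6 inputs, and Sst had 322, 589 and 185 CPM against 510.3 to 1149 CPM. Gad1 (higher) and Dlx1 and Dlx2 (lower) did not overlap with the inputs, and Sst did, where 38.1% of all genes did not overlap. Of the 7 genes 4 passed, against 31.1% of all genes. Gad1 (0.72, SE 0.229, edgeR FDR 0.0187) and Slc32a1 (0.79, SE 0.276, edgeR FDR 0.0320) were higher, and Sst (-1.12, SE 0.361, edgeR FDR 0.0232) and Dlx2 (-0.95, SE 0.282, edgeR FDR 0.0130) were lower. Gad2 (0.45), Npy (-1.38) and Dlx1 (-0.87) did not pass. The input and pulldown of one bait, condition and number deviated together from their groups, and with the number as a block all 7 passed, against 42.9% of all genes. Gad2 then had 0.44 (edgeR FDR 0.00608), Npy -1.45 (edgeR FDR 2.97e-06) and Dlx1 -0.85 (edgeR FDR 0.0398). In the fit without the block, none of the 7 passed without replicate 3, and 0.121% of all genes did. There the call of Gad1 also ended without replicate 2, and those of Slc32a1 and Sst without replicate 1.

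After KCl the same contrast had 1 gene past the threshold, Dlx2, which was lower at -0.98 (SE 0.273, edgeR FDR 0.0163), against 18% of all genes in either direction and 6.84% lower. With the number as a block 6 of 7 passed (33.1% of all genes), with Gad1 at 0.41 and Slc32a1 at 0.61 higher, and Sst at -0.92, Npy at -1.37, Dlx1 at -1.02 and Dlx2 lower. The call of Dlx2 without the block ended without replicate 1 or replicate 3. The difference between the depolarized and resting contrasts was tested as such, and none of the 7 genes and no gene of any kind (0%) passed in edgeR, with none of the 7 at an unadjusted p under 0.05. Its interval for Gad1 ran from -0.96 to 0.33 and for Sst from -0.70 to 1.20 on the log2 scale.

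The bait without localization sequences gave the same set of directions. In Pan-TurboID pulldowns over their inputs, 4 genes were lower, against 34.2% of all genes in either direction and 17.4% lower. These were Sst at -1.22 (SE 0.284, edgeR FDR 0.00300), Npy at -1.48 (SE 0.462, edgeR FDR 0.0191), Dlx1 at -1.48 (SE 0.282, edgeR FDR 6.50e-04) and Dlx2 at -1.03 (SE 0.217, edgeR FDR 0.00121). Gad1 and Slc32a1 had 0.48 (edgeR FDR 0.0510) and 0.53 (edgeR FDR 0.0759), which passed with the number as a block (0.49 and 0.52). Both also passed with DESeq2 (38.7% of all genes). Gad1 passed in other alternatives too, but not with the length trend taken out or without replicate 2 or 3. The calls of Sst and Npy ended without replicate 1 and that of Dlx2 without replicate 3. Whether TurboID-PSD95 enriched these genes beyond Pan-TurboID was tested as the difference between the baits. None of the 7 passed, none had an unadjusted p under 0.05 and DESeq2 called none, and 0.00768% of all genes passed in edgeR. The log2 difference was 0.13 for Gad1 (95% interval -0.40 to 0.66), 0.33 for Slc32a1 (-0.31 to 0.97) and 0.19 for Sst (-0.58 to 0.97).

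CDS length moved with these contrasts. The genes that were lower in the pulldowns are those with the shorter CDSs of the 7, and the genes that were higher are the 3 longest. Once the trend of counts with CDS length was removed from every library, 1 of the 4 calls at rest was left, Dlx2 at -0.78, while Sst changed from -1.12 to -0.22. The share of all genes called at rest fell as well, from 31.1% to 18.5%. Gad1 and Slc32a1 were no longer called but changed little in size, to 0.60 and 0.71. In the Pan-TurboID contrast Dlx1 at -1.18 and Dlx2 at -0.91 were left and Sst and Npy were at -0.36 and -0.59. There the share of all genes called fell from 34.2% to 19.9%.

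Pulldown over input was also compared after DHPG, with 3 libraries each. Gad1 had 512, 527 and 526 CPM in the inputs and 815, 786 and 757 CPM in the pulldowns. Gad2 had 194, 191 and 193 CPM in the inputs and 289, 276 and 255 CPM in the pulldowns, and Slc32a1 had 345, 309 and 306 against 432, 418 and 493 CPM. All 3 were higher in each pulldown than in any input. The peptide genes went the other way. Sst had 468, 472 and 422 CPM in the inputs and 113, 131 and 163 CPM in the pulldowns, and Npy had 76.5, 83.0 and 71.5 against 19.1, 24.1 and 20.3 CPM. Dlx2 had 46.6, 46.1 and 37.4 CPM in the inputs and 16.2, 19.8 and 21.8 CPM in the pulldowns, and Dlx1 had 20.8, 15.1 and 15.2 against 4.76, 3.93 and 5.13 CPM. The groups did not overlap for any of the 7 genes, which held for 77.5% of all genes.

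All 7 genes passed after DHPG, and 79.8% of all genes did, so the count is near the background and the sizes are what can be read. Gad1 was higher by 0.80 (SE 0.0548, edgeR FDR 1.91e-10), Gad2 by 0.71 (SE 0.0650, edgeR FDR 1.02e-08) and Slc32a1 by 0.69 (SE 0.0693, edgeR FDR 3.66e-08) on the log2 scale. Sst was at -1.53 (SE 0.0951), Npy at -1.65 (SE 0.103), Dlx1 at -1.68 (SE 0.181) and Dlx2 at -0.95 (SE 0.123). All 7 also passed in each of 11 alternatives. With the length trend taken out, Gad1 was at 0.58, Sst at -0.26, Npy at -0.25, Dlx1 at -1.09 and Dlx2 at -0.67. In the lists, all 4 genes of GABA uptake and breakdown were higher, led by Abat, the GABA transaminase, at 1.54 (SE 0.0722). Of 14 transcription factors 10 were lower and 2 higher. Of 15 peptides, receptors and subtype markers 9 were lower and 4 higher, among them Calb1, a calcium buffer, at -1.82 and Reln, a secreted glycoprotein, at 1.14.

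**Figure D3:**
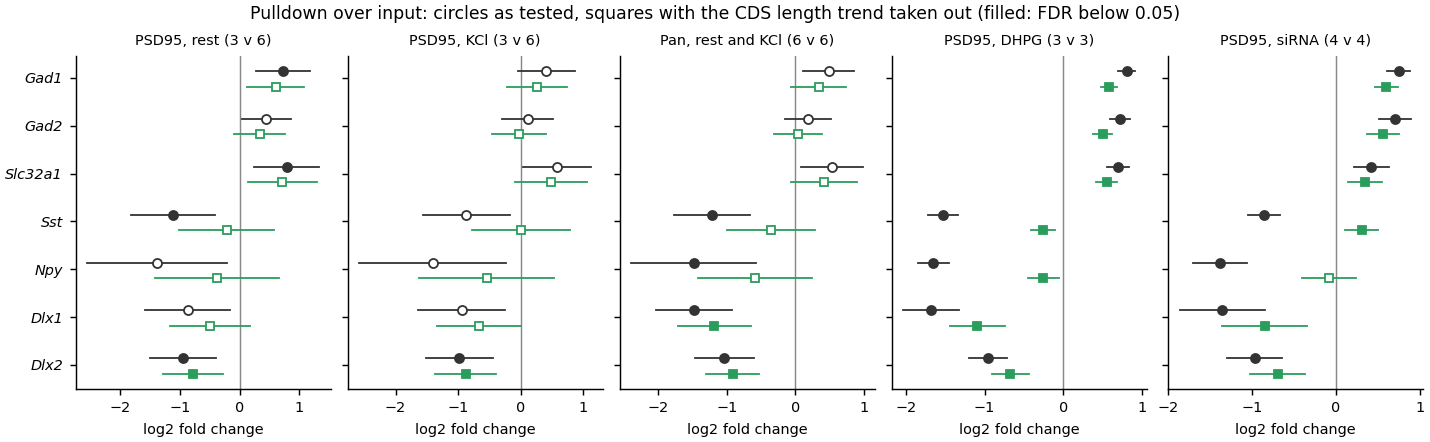
Log2 fold change of pulldown over input for each gene, with 95% intervals, in 5 panels (number of libraries as pulldown v input). Circles are as tested, squares have the trend with CDS length taken out, and filled symbols passed an FDR of 0.05. Gad1 and Slc32a1 lie above 0 and Sst, Npy, Dlx1 and Dlx2 below 0 as tested in every panel, and the squares of Sst and Npy move towards 0, that of Sst past it in the depolarized panel (0.0038) and with siRNA (0.305).

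Set against the resting TurboID-PSD95 libraries of the KCl experiment, the DHPG inputs gave no call among the 7 genes (32.8% of all genes passed), with none at an unadjusted p under 0.05 and none called by DESeq2. Gad1 differed by 0.05 (95% interval -0.21 to 0.31) and Gad2 by 0.07 (-0.21 to 0.35) on the log2 scale. Sst was the 1 gene without overlap, at 422 to 472 against 566 to 1149 CPM (52.1% of all genes did not overlap), and its log2 fold change was -0.76 (SE 0.397, edgeR FDR 0.174). In the pulldowns Sst passed as lower, at -1.22 (SE 0.405, edgeR FDR 0.0324), against 47.7% of all genes in either direction and 26% lower. That call ended with no filter on low counts, with the length trend taken out, without replicate 1 and without replicate 2. Beside it, glial markers differed between the experiments. Of 7 astrocyte genes tested 6 were lower in the DHPG inputs, with a summed level of 226 to 239 against 564 to 1139 CPM, and of 8 oligodendrocyte genes 6 were lower, at 66.4 to 71.9 against 281 to 659 CPM. Of 8 immediate early genes 6 were lower and 1 higher in the DHPG inputs, with a summed level of 230.4 to 257.7 against 635.9 to 1050.5 CPM. Of 4 dividing-cell genes 3 were lower. Among the interneuron lists 6 of 14 lineage factors were lower and 1 higher (summed level 586 to 613 against 828 to 1137 CPM), 6 of 15 peptides, receptors and subtype markers were higher and 2 lower, and 2 of 4 genes of GABA uptake and breakdown were higher. In the pulldowns, where Sst was called, 7 of 7 astrocyte and 6 of 8 oligodendrocyte genes were lower. Of 8 pan-neuronal genes 5 were lower and 2 higher, and of 14 lineage factors 8 were lower and 2 higher. Of 15 peptides, receptors and subtype markers 5 were lower and 4 higher, and 2 of 4 genes of GABA uptake and breakdown were higher. The part of all these lists in the result was not tested.

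With siRNA against eIF4G2, Gad1, Gad2, Slc32a1 and Sst were lower than in the TurboID-PSD95 inputs of the KCl experiment. Eif4g2 itself, the siRNA's target, was lower too, at -0.98 on the log2 scale (SE 0.190, edgeR FDR 0.00375) in resting and -0.90 (SE 0.190, edgeR FDR 0.00638) in depolarized inputs. Gad1 had 520.0, 638 and 465 CPM in resting inputs without siRNA and 234 and 228 CPM with it, and 711, 553 and 512 against 245 and 227 CPM after KCl. Gad2 had 212, 219 and 159 against 86.9 and 81.9 CPM at rest, and Slc32a1 had 287, 454 and 350.3 against 120.3 and 127 CPM. Sst showed the widest gap, with 752, 1149 and 566 CPM against 177 and 175 CPM at rest, and 1541, 1599 and 1060.0 against 274 and 271 CPM after KCl. For these 4 genes all 4 siRNA inputs lay below all 6 inputs without siRNA, which held in either direction for 13.7% of all genes. Npy overlapped, with 39.3 and 47.7 CPM at rest under siRNA, and so did Dlx1 and Dlx2, the latter at 40.3 and 41.7 against 34.7 to 46.3 CPM.

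At rest 4 of the 7 genes were called, all lower, where 3.9% of all genes passed in either direction and 2.01% were lower. The log2 fold changes were -1.21 (SE 0.242, edgeR FDR 0.00500) for Gad1, -1.20 (SE 0.226, edgeR FDR 0.00330) for Gad2, -1.54 (SE 0.291, edgeR FDR 0.00343) for Slc32a1 and -2.21 (SE 0.437, edgeR FDR 0.00726) for Sst. As a ratio of levels, Sst was 4.62-fold and Gad1 2.31-fold lower. After KCl the same 4 genes were lower (5.32% of all genes passed, 2.14% lower), at -1.30, -1.12, -1.42 and -2.33, with edgeR FDRs of 0.00271 to 0.00530. Npy had -0.69 (SE 0.537) and -0.25 (SE 0.535), Dlx2 0.03 (SE 0.326) and -0.38 (SE 0.331), and Dlx1 0.03 (SE 0.398) and 0.80 (SE 0.397), none past the threshold. The 8 calls rest on 2 siRNA libraries each. When either was left out none of the 4 genes passed in that condition, with fold changes of the same sign, and the call of Sst after KCl also ended without the no-siRNA replicate 1.

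Lists of other interneuron genes were read in the same contrast at rest. Against the 3.9% of all genes called, 5 of 14 transcription factors were lower and none higher (median -1.24), with Maf, a factor of maturing interneurons, at -2.19 (SE 0.316, edgeR FDR 2.24e-04). Of 15 peptides, receptors and subtype markers 6 were lower and none higher, with Ndnf at -2.20 (SE 0.306, edgeR FDR 1.65e-04). The 4 genes of GABA uptake and breakdown did not go one way, with 1 higher and 1 lower (median -0.273). After KCl 3 of the 14 factors were lower and 1 higher (median -0.762), and 6 of the 15 peptides, receptors and subtype markers were lower. When either resting siRNA input was left out, 0.426% of all genes passed at rest. Markers of excitatory neurons did not shift as a whole, since 2 of 10 were higher and 2 lower, and their summed level was 1575 to 1599 CPM with siRNA against 1482 to 1929 CPM without. Single markers went apart from that sum, since Slc17a7, the vesicular glutamate transporter among them, had 48.8 to 59.2 CPM in resting siRNA inputs against 240.7 to 300.5 CPM without. Microglial markers summed to 10.98 to 12.6 CPM against 1.30 to 3.82 CPM and dividing-cell markers to 286 to 295 against 158 to 272 CPM in resting inputs. Oligodendrocyte markers summed to 225 to 231 against 281 to 659 CPM, with 1 of 8 genes lower. After KCl microglial markers summed to 13.7 to 24.8 against 1.28 to 5.73 CPM, and dividing-cell markers to 347 to 364 against 129 to 234 CPM. Immediate early genes summed there to 5472.5 to 5608 against 6829 to 10261 CPM, with 2 of 8 lower and 0 higher. The part of these in the result was not tested. Within the GABA genes, Sst over Gad1 (CPM) was 0.757 to 1.19 in siRNA inputs, 1.22 to 1.80 in resting and 1.25 to 2.89 in depolarized inputs without it. The DHPG inputs, also without siRNA and in the run of the siRNA libraries, had 0.804 to 0.914, inside the siRNA range. In level, Gad1 had 512 to 527 CPM in these DHPG inputs against 227 to 245 CPM in the siRNA inputs. Gad2 had 190.5 to 194 against 81.9 to 98.7 CPM, and Slc32a1 305.5 to 345.1 against 119.2 to 147.7 CPM. Sst had 422 to 472 against 175 to 274 CPM, while Npy, Dlx1 and Dlx2 overlapped. The part of run or treatment in these values was not tested. Gad1 over Gad2 (CPM per kb) was 2.37 to 2.74 with siRNA and 2.23 to 2.95 over all 19 inputs.

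Within the siRNA experiment, where libraries share 1 run, KCl raised Sst, Npy and Dlx1 in the inputs. Sst went from 177 and 175 to 274 and 271 CPM, Npy from 39.3 and 47.7 to 79.5 and 71.9 CPM, and Dlx1 from 12.7 and 17.8 to 33.7 and 27.5 CPM. These 3 of 7 genes passed, all as a rise, against 19.3% of all genes in either direction and 8.96% higher. The log2 fold changes were 0.64 for Sst (SE 0.126, edgeR FDR 5.20e-04), 0.82 for Npy (SE 0.204, edgeR FDR 0.00508) and 1.02 for Dlx1 (SE 0.319, edgeR FDR 0.0244). Dlx2 had 40.3 and 41.7 against 52.8 and 64.1 CPM, and 0.52 (SE 0.214, edgeR FDR 0.0968). Gad2, Sst, Npy, Dlx1 and Dlx2 did not overlap between the conditions, which with 2 libraries each held for 63.2% of all genes. Gad1, Gad2 and Slc32a1 had 0.05, 0.21 and 0.11. In the same contrast 5 of 14 other lineage factors were higher and 1 lower (median log2 fold change 0.756, against 0.0239 over all genes). Of 11 peptides, receptors and subtype markers tested 1 was higher and 3 lower. Of 4 genes of GABA uptake and breakdown 1 was higher and 1 lower. Beside these, 2 of 7 astrocyte genes were higher, with summed levels of 639 to 662 CPM at rest and 787 to 843 CPM after KCl. Of 4 dividing-cell genes 2 were higher (286 to 295 against 347 to 364 CPM), and of 8 pan-neuronal genes 3 were lower and 1 higher. The part of these in the result was not tested. The call of Dlx1 ended when any 1 of the 4 input libraries was left out, that of Npy without the first replicate of either input group or with the length trend taken out, and that of Sst with the trend taken out. Whether KCl acted differently with and without the siRNA was tested as an interaction. None of the 7 genes passed or had an unadjusted p under 0.05, DESeq2 called none, and 0.00758% of all genes passed in edgeR. The interval for Npy, -1.02 to 1.91, spans most sizes of interest.

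In the siRNA pulldowns KCl raised Gad1, Gad2 and Dlx2. Gad1 went from 301 and 271 to 474 and 450.1 CPM, Gad2 from 127 and 102 to 163 and 159 CPM, and Dlx2 from 17.7 and 17.9 to 26.3 and 34.3 CPM. These 3 genes passed as a rise, against 22.2% of all genes in either direction and 10.2% higher. Gad1 had 0.69 (SE 0.0996, edgeR FDR 1.02e-05), Gad2 0.48 (SE 0.141, edgeR FDR 0.0154) and Dlx2 0.76 (SE 0.258, edgeR FDR 0.0337). Gad1 passed in all 16 alternatives, the call of Gad2 ended without the second resting or the first depolarized pulldown, and that of Dlx2 without any 1 of 5 of the 8 libraries (both resting inputs, both resting pulldowns and the second depolarized pulldown). Sst had 128 and 117 CPM at rest and 118 and 84.1 CPM after KCl, and Npy 24.3 and 26.0 against 17.9 and 15.5 CPM, with log2 fold changes of -0.27 and -0.57 that did not pass. Beside these, 3 of 7 astrocyte genes were higher and 1 lower (summed levels 556 to 685 CPM at rest and 783 to 984 CPM after KCl). Of 4 dividing-cell genes 1 was higher (489 to 495 against 646 to 723 CPM), and of 8 pan-neuronal genes 1 was lower (6716 to 6838 against 4970 to 4973 CPM). Their part was not tested.

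Pulldown over input within the siRNA experiment, both conditions together, had the same directions as after DHPG. All 7 genes passed (59.7% of all genes did), with Gad1 at 0.75 (SE 0.0705), Gad2 at 0.70 (SE 0.0995) and Slc32a1 at 0.42 (SE 0.105) higher, and Sst at -0.86 (SE 0.0952), Npy at -1.38 (SE 0.164), Dlx1 at -1.36 (SE 0.259) and Dlx2 at -0.97 (SE 0.167) lower, at edgeR FDRs up to 0.00119. With the length trend taken out the call of Sst reversed, to 0.305 higher in the pulldown (SE 0.0987, edgeR FDR 0.0131), and Npy was at -0.0848, no longer called. The difference in the KCl response between pulldown and input, a contrast added after the data had been seen, passed for 3 of the 7 genes and for 3.77% of all genes. It was 0.64 for Gad1 (SE 0.141, edgeR FDR 0.00719), -0.91 for Sst (SE 0.190, edgeR FDR 0.00507) and -1.39 for Npy (SE 0.330, edgeR FDR 0.0147). The calls of Sst and Npy ended with the length trend taken out, where they were at -0.66 and -1.12. Those of Gad1 and Npy ended without the first resting input or the second depolarized input, and that of Npy also without the first depolarized input.

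Where on the mRNA the footprints lay also differed between input and pulldown. Each CDS was split at the exon junction nearest its middle, into 864 and 918 nt for Gad1, 840 and 918 nt for Gad2 and 390 and 1188 nt for Slc32a1. Counts per nt in the 3′ portion over the 5′ portion had a median of 1.31 over all genes in resting pulldowns and 0.721 in resting inputs. The median over genes of each gene's own ratio of pulldown to input was 1.78, and for 35.9% of 9657 genes every pulldown was above every input. Gad1 had 2.90 in the pulldowns and 1.02 in the inputs, Gad2 3.76 and 1.11, and Slc32a1 9.60 and 1.46. Sst had 1.12 and 0.68. These 4 genes did not overlap, and Npy, Dlx1 and Dlx2 did. The 6.59-fold difference of Slc32a1 was at the 99.6th percentile of all genes, that of Gad2 at 90.7 and that of Gad1 at 83.3. The Slc32a1 CDS shares 365 bases with the opposite-strand gene Gm14205, so all values of Slc32a1 along the CDS are uncertain. In depolarized libraries the medians over all genes were 1.04 and 0.544, with every pulldown above every input for 7.44% of genes. Of the 7 genes Slc32a1 alone did not overlap there, at 4.63 and 0.833, and Gad1 (2.27 and 0.697) and Gad2 (2.63 and 0.737) overlapped. After DHPG the values were 5.16 and 0.962 for Gad1, 5.73 and 1.11 for Gad2 and 8.97 and 1.35 for Slc32a1, against 1.72 and 0.795 over all genes, where 72.9% did not overlap upwards. Dlx1 had 1.54 and 2.15, lower in the pulldowns but with overlap. With siRNA, where the medians over all genes were 1.53 and 0.798 and 43.6% did not overlap upwards, the ratio of pulldown to input was 6.01 for Slc32a1, 4.69 for Npy, 4.25 for Sst, 3.42 for Gad1, 3.34 for Gad2, 1.80 for Dlx2 and 0.592 for Dlx1. All but both Dlx genes were without overlap there. In the first segment of the CDS, footprint density over the mean of the CDS was 2.98 in inputs and 0.654 in pulldowns for Gad1, and 4.61 and 1.08 for Gad2, pooled over 19 libraries each. These are descriptions, and the cause of the shift along the CDS was not tested.

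**Figure D4:**
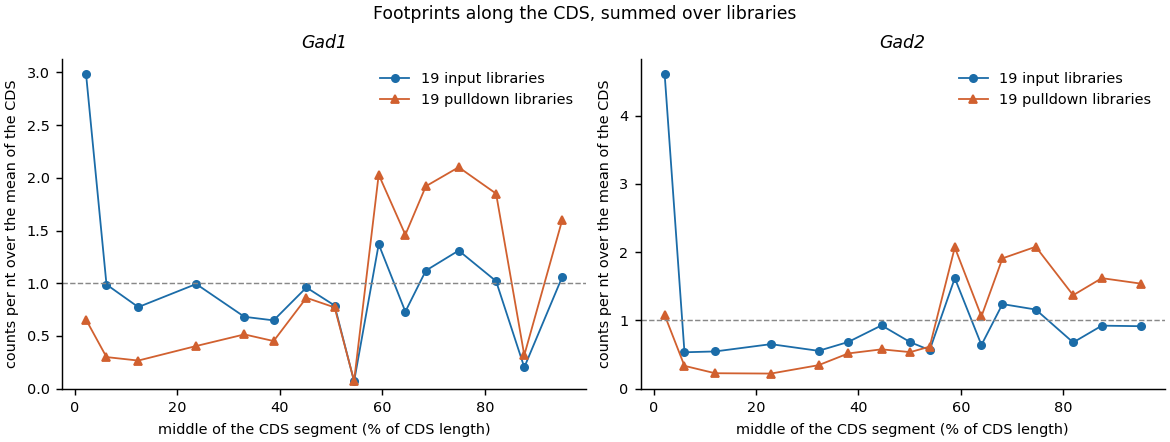
Footprint density along the CDS of Gad1 and Gad2, as counts per nt of each exon segment over the mean of the whole CDS, against the position of the segment's middle in percent of the CDS. One line is pooled over 19 inputs and the other over 19 pulldowns. Inputs are highest in the first segment (2.98 for Gad1, 4.61 for Gad2), where pulldowns are at 0.654 and 1.08.

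The 5′ UTR, whose ribosome occupancy is a readout of the study, held 31.7% of the footprints of the Gad1 mRNA in inputs and 10.4% in pulldowns, pooled over 19 libraries each. For Gad2 these shares were 35.8% and 14.7%, for Slc32a1, whose 5′ UTR reads are uncertain for the overlap with Gm14205, 19.9% and 4.80%, and for Dlx2 33.2% and 20.4%. Sst had 29.7% and 26.7%, Npy 13% and 11.1%, and Dlx1, the highest of the 7, 52.1% and 46.4%. The median over 12590 genes was 18.7% in inputs and 7.97% in pulldowns. Without a block KCl changed no 5′ UTR count of the 7 genes past the threshold, in inputs (0.443% of all genes passed in edgeR) or in TurboID-PSD95 pulldowns (0.285%). At an unadjusted p under 0.05 the 1 gene in each was Dlx2, with log2 fold changes of 1.45 (SE 0.385, edgeR FDR 0.0644) and 2.04 (SE 0.590, edgeR FDR 0.129). DESeq2 called 1 of the 7 genes in each, against 1.82% and 2.62% of all genes. With the replicate number as a block Dlx2 passed in both, at 1.57 (edgeR FDR 3.81e-04, 1.41% of all genes) and 2.13 (edgeR FDR 0.00689, 2.09%). Beside these values, the median log2 fold change over all 10158 genes was 0.17 in inputs and 0.65 in pulldowns (0.15 and 0.57 with the block). Of 12 other lineage factors tested, Dlx5, a further Dlx gene, rose in the 5′ UTR in inputs by 2.14 (SE 0.430, edgeR FDR 0.00181).

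Over all 38 libraries the log2 levels of Gad1, Gad2 and Slc32a1 went together. These correlations describe libraries that share groups and runs, so they carry no p. Gad1 and Gad2 had a Pearson correlation of 0.972, Gad1 and Slc32a1 0.897 and Gad2 and Slc32a1 0.900. The peptide and Dlx genes correlated with each other at 0.455 (Sst and Dlx1) to 0.816 (Dlx1 and Dlx2), with Sst and Npy at 0.686 and Npy and Dlx2 at 0.706, whereas Gad1 had 0.326 with Sst and -0.465 with Dlx1. Among 10706 genes outside the list, those most like Gad1 were Grik1, a kainate receptor subunit, at 0.935, Galntl6 at 0.906 and Reln at 0.903. Reln was also the gene most like Slc32a1, at 0.931, followed by Grik3 at 0.908 and the excitatory marker Slc17a7 at 0.899, so that likeness to these genes is not particular to interneuron genes. The genes most like Sst were Pnoc, which encodes a further peptide precursor, at 0.960, Tac1, the precursor of substance P, at 0.933 and Chchd10 at 0.926. Nrep was most like Npy (0.855), Hmgb2 most like Dlx1 (0.883) and H3f3b, a histone H3.3 gene, most like Dlx2 (0.944).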

How the data were processed

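PL-Ribo-seq (proximity labelling with ribosome profiling) data of 38 libraries were analysed. According to their methods, the authors trimmed and demultiplexed reads, cut off molecular identifiers and aligned to mm10 with Rsubread. Ribosomal RNA and duplicates were removed, as file headers mark. The deposited values used are raw counts of footprint 5′ ends per exon segment (plastid, no offset, in CDS, 5′ UTR and 3′ UTR). Without an offset, footprints that begin ahead of the start codon count towards the 5′ UTR, and removal of duplicates can flatten short, strongly translated CDSs. Whole-number counts of the transcript with the longest CDS and UTRs were summed per gene. Of 67238 coding transcripts 66664 (99.1%) matched gene symbols.

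edgeR 4.0.16 in R 4.3.3 was used (quasi-likelihood F test, robust, TMM scaling, filterByExpr, Benjamini-Hochberg over all genes at 0.05), with fits of 24 libraries (KCl), 6 (DHPG), 12 (DHPG against rest), 8 (siRNA) and 20 (siRNA against none). Tests of 5′ UTR counts used the scaling of the CDS. Each standard error is the size of the fold change over the root of F. Alternatives were the likelihood ratio test that the study's methods name, DESeq2 1.42.0, its size factors, library sizes alone, no filter, the transcript with the highest count, a loess trend of log2 counts on CDS length (span 0.5) taken out, the replicate number as a block, and leaving out replicates. Over 7681 genes, deviations of input and pulldown of one bait, condition and number correlated at 0.359 to 0.708 in all 12 pairs of the KCl experiment, so these numbers pair libraries. Resting and depolarized libraries correlated at -0.190 to 0.422, and their numbers were taken as paired because the study's methods state that resting and activated samples of a replicate were processed together. Pooled counts were used for shares and for portions of at least 100 nt of a split CDS, and genes with a mean of 1 CPM or more for the overlap of groups and 5 CPM or more for likeness.

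The 7 genes are named in every comparison, and of the related lists at most the 4 with the smallest p. Some genes of these lists are not reported here. The genes, lists and tests were chosen with earlier results of these data known. The contrast of KCl responses between siRNA pulldowns and inputs, and leaving out replicates without siRNA, were added after seeing the data. The scripts were tested on simulated data.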

Additional observations from a re-analysis of the deposited data

Results flagged for a closer look

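In the siRNA experiment the KCl response differed between pulldown and input for 3 of the 7 genes, by a test of that difference in edgeR with 2 libraries per group. For Gad1 it was 0.64 higher in the pulldown on the log2 scale, since pulldowns changed by 0.69 and inputs by 0.05. For Sst it was -0.91, with -0.27 in pulldowns and 0.64 in inputs, and for Npy -1.39, with -0.57 and 0.82. This siRNA contrast, added after the data had been seen, passed for 3.77% of all genes. Each of the 3 calls ended in some of the alternatives, as given with the results. The nearest contrast made without siRNA had, in each condition, 3 pulldowns of TurboID-PSD95 and 6 inputs, those of Pan-TurboID included. That contrast passed for none of the 7 genes and for 0% of all genes in edgeR. Its lack of calls thus does not set these genes apart. The inputs are not matched between these contrasts, and the difference between them was not tested.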

How the results depend on the processing

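Counts of the 7 genes past the threshold are given first, with the share of all genes past it in brackets. With the likelihood ratio test there was 1 for KCl in each bait's pulldowns (9.51% with TurboID-PSD95, 7.01% with Pan-TurboID). There were 2 for depolarized dendritic enrichment (21.7%) and 1 in each 5′ UTR comparison (0.768% in inputs, 1.49% in pulldowns). Resting dendritic enrichment had 6 (34.8%) and Pan-TurboID pulldown over input had 5 (37.8%). With DESeq2 there were 2 for KCl in inputs (20.6%) and 1 in each bait's pulldowns (12.2% and 8.92%, in the same order). There were 3 for depolarized dendritic enrichment (30.1%) and 1 in each 5′ UTR comparison (1.82% and 2.62%). With DESeq2's size factors in edgeR there was 1 for KCl in Pan-TurboID pulldowns (5.03%) and 1 in the 5′ UTR of inputs (0.522%). With library sizes alone there were 3 for DHPG against rest in pulldowns (50.2%). Without a filter on low counts there was 1 for KCl in each bait's pulldowns (4.18% and 3.16%) and 0 for DHPG against rest in pulldowns (35%). With the CDS length trend taken out there was 1 for KCl in Pan-TurboID pulldowns (4.12%) and 1 for resting dendritic enrichment (18.5%). There were 2 for Pan-TurboID pulldown over input (19.9%) and 0 for DHPG against rest in pulldowns (43.8%). KCl in siRNA inputs had 1 (16.4%), and the difference of KCl responses between siRNA pulldowns and inputs had 1 (3.21%). DHPG pulldown over input kept a count of 7 in every alternative (60.8% to 80.7%). For siRNA pulldown over input it was 6 with the length trend taken out (47.5%). It was 7 in the other alternatives that kept all libraries (45.6% to 63.8%).

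Input and pulldown of the KCl experiment are paired by number. With the replicate block 7 genes passed for resting (42.9% of all genes) and 6 for depolarized dendritic enrichment (33.1%). Npy in the difference between those contrasts turned to 0.0813. The block gave 2 genes for KCl in inputs (19.5%), 2 in each bait's pulldowns (9.76% and 7.56%) and 1 in each 5′ UTR comparison (1.41% and 2.09%). Dlx1 in resting inputs with siRNA against none turned to -0.0583 with the block. In that fit and in DHPG against rest, the block joined equal numbers of different experiments. Nothing in the sources pairs these numbers, so the block says little there. The block ended no call of the 7 genes, and the calls it added are given with their results.

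Other changes of sign were of values that had not passed, except that of Sst for siRNA pulldown over input, which reversed as a call, to 0.305, with the length trend taken out. That setting also turned Npy to -0.0628 for KCl in inputs. For KCl in TurboID-PSD95 pulldowns it turned Gad1 to 0.113, Gad2 to 0.0862, Slc32a1 to 0.0043 and Npy to -0.230, and in Pan-TurboID pulldowns Slc32a1 to 0.0849 and Npy to -0.305. It turned Gad2 to -0.0298 and Sst to 0.0038 for depolarized dendritic enrichment, Dlx2 to 0.0260 in the bait difference, Npy to 0.226 for DHPG against rest in pulldowns and Slc32a1 to 0.0828 for KCl in siRNA pulldowns. Slc32a1 for KCl in Pan-TurboID pulldowns was 0.0023 with DESeq2 and 0.0032 with its size factors, and in siRNA pulldowns 0.0201 and 0.0226. Library sizes alone turned Dlx2 to 0.0012 in the difference between dendritic contrasts, Gad1 and Gad2 to -0.0532 and -0.0320 for DHPG against rest in inputs, and Gad1 to -0.123 in pulldowns.

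Leaving out 1 replicate or library at a time gave these ranges of log2 fold change or counts of genes past the threshold. For KCl in inputs they were -0.0069 to 0.578 for Gad1, -0.190 to 0.248 for Slc32a1 and -0.421 to 0.995 for Npy. There 0 to 2 genes were past, against 3.91% to 16.2% of all genes. In TurboID-PSD95 pulldowns the ranges were -0.430 to 0.297 for Gad1, -0.339 to 0.231 for Gad2, -0.596 to 0.269 for Slc32a1 and -0.132 to 0.725 for Npy. There 0 to 1 gene was past, against 0.689% to 11.2% of all genes. In Pan-TurboID pulldowns the ranges were -0.115 to 0.0796 for Slc32a1 and -0.708 to 0.802 for Npy. Dendritic enrichment had 0 to 3 genes past at rest (0.121% to 27.8% of all genes) and 0 to 4 after KCl (0.129% to 22.7%). The difference between these had -0.405 to 0.0206 for Slc32a1, -0.270 to 0.289 for Npy, -0.277 to 0.156 for Dlx1 and -0.215 to 0.0590 for Dlx2, and the bait difference -0.201 to 0.0806 for Dlx2. In 5′ UTRs, Npy had -1.30 to 0.289 in inputs and -0.580 to 2.32 in pulldowns. The inputs had 0 to 1 gene past, against 0.0764% to 0.799% of all genes. DHPG against rest had -0.0484 to 0.195 for Gad1, -0.0526 to 0.1795 for Gad2, -0.313 to 0.151 for Slc32a1 and -0.161 to 0.684 for Npy in inputs, and -0.0351 to 0.282 for Gad1 and -0.510 to 0.360 for Npy in pulldowns.

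KCl with siRNA had -0.0129 to 0.0912 for Gad1 and -0.0513 to 0.265 for Slc32a1 in inputs. In pulldowns it had -0.301 to 0.228 for Slc32a1 and -0.0960 to 0.402 for Dlx1. The difference of these responses had -0.397 to 0.132 for Slc32a1. For siRNA against none, Dlx1 had -0.208 to 0.280 and Dlx2 -0.0935 to 0.127 at rest. The interaction of siRNA with KCl had -0.347 to 0.1399 for Gad1, -0.147 to 0.197 for Gad2, -0.139 to 0.462 for Slc32a1, -0.426 to 0.0565 for Sst and -0.253 to 1.10 for Npy. Where a siRNA group was left with 1 library, that library is assumed to vary like the others. Counts of single genes limit precision, from 10 for Dlx1 and 20 for Npy to 521 for Gad1 in the library where each was lowest. Except where a value shows it, the cause of a change was not tested.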
